A study of Mus musculus with 24 samples.

Results

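The ERVK repeat types are the mouse families of endogenous retroviruses that RepeatMasker places in the ERVK class, among them the intracisternal A particles (IAPs), the early transposons (ETn) and the MusD elements. Every entry of the RNA count files with the ERVK prefix was taken, which gave 275 of 56326 genes and repeat types, or 275 of the 1035 repeat types. All 275 held counts in at least 1 library, and 4 of them (ERVB4_1-LTR_MM, RLTR9A4, RLTR46 and RLTR3_Mm, named after their values were seen) were too low for the test of MERVL-KD against control at any stage, though RLTR46 was tested between stages. By name, 45 types were internal regions and 230 were long terminal repeats (LTRs), and they were sorted into 13 groups.

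The study asked what happens to mouse embryos when the endogenous retrovirus MERVL is depleted. Zygotes of 8-week-old B6D2F1 mice, whose background strain the labels give as BDF2, were collected from superovulated, mated females and injected in the male pronucleus with antisense oligonucleotides (ASOs) at 20 µM. MERVL-KD embryos received a mix of 3 ASOs against MERVL and control embryos a scrambled ASO, and both were cultured in KSOM medium. Total RNA was sequenced at the 2-cell stage (1.5 days post-coitum) and at the 4-cell and 8-cell stages, to which the labels give the same age of 2.5 days. The paper reports that MERVL-KD embryos were delayed in development from that age. Embryos were taken by their cleavage stage, which was checked under the microscope. Embryos may thus differ in speed of development between the 4-cell and 8-cell stages, and between control and MERVL-KD within a stage. The part of this selection in the results was not tested. Each of the 6 groups had 2 libraries, and each library held 30 embryos freed of the zona pellucida and pooled, so differences between single embryos are not seen. The 2-cell libraries held 33532931 and 41320446 counts in control and 35524346 and 30450413 counts in MERVL-KD embryos. The 4-cell libraries held 34671067 and 28167085 counts in control and 33024212 and 33089736 counts in MERVL-KD embryos, and the 8-cell libraries 31557127 and 33309531 counts in control and 34491197 and 41482526 counts in MERVL-KD embryos. ERVK types took from 234355 to 720518 of them. The authors kept unique alignments only, so the counts cover the part of each repeat that can be aligned uniquely, which is smallest in the youngest copies.

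An ERVK element carries an internal region with the genes of a retrovirus between LTRs, which hold its promoter, and most copies in the genome are single LTRs left behind by recombination. IAPs and MusD elements still move in the mouse genome, and ETn elements lack the retroviral genes and depend on the proteins of MusD. In early embryos these elements are transcribed while much of the DNA methylation of the gametes is lost, and they are held in check by zinc finger proteins that recruit Trim28 and the histone methyltransferase Setdb1.

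The sequences of the injected ASOs are shown because every contrast between control and MERVL-KD libraries rests on them. They are written 5′ to 3′, and sites for them in ERVK copies were not sought.
MERVL-ASO1: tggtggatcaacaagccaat
MERVL-ASO2: catttgtctgtttaccacga
MERVL-ASO3: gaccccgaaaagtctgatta
Scramble-ASO: agcgcgggtattgaaccagg

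The target was examined first. MERVL-int, the internal region of MERVL, stood at 67631 and 74719 CPM in control and 1323 and 1227 CPM in MERVL-KD 2-cell embryos, where CPM are counts normalised to the library totals after TMM scaling of the 12 libraries. At the next stage it stood at 20309 and 17398 CPM in control and 493 and 319 CPM in MERVL-KD 4-cell embryos, and later at 12212 and 12002 CPM in control and 277 and 295 CPM in MERVL-KD 8-cell embryos. Every MERVL-KD library therefore lay far below both control libraries of its stage. The MERVL LTR, MT2_Mm, stood at 4824 and 5324 CPM in control and 766 and 888 CPM in MERVL-KD 2-cell embryos. Its difference narrowed afterwards, from a log2 fold change of -2.53 at the 2-cell stage to -1.63 in 4-cell and -1.03 in 8-cell embryos.

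ERVK types together took a larger share of the counts in MERVL-KD than in control embryos at each stage. Their share of all counts was 0.699% and 0.621% in control embryos and 0.930% and 0.820% in MERVL-KD 2-cell embryos. Later it was 1.26% and 1.23% in control embryos and 1.59% and 1.70% in MERVL-KD 4-cell embryos, and then 1.38% and 1.24% in control embryos and 1.68% and 1.74% in MERVL-KD 8-cell embryos. The ratio of the group means was 1.33, 1.33 and 1.30 in order of stage, and at no stage did the libraries of the groups overlap. With 2 libraries against 2, an exact two-sided permutation test gave p = 0.33 at each stage, the smallest value it can give. The Wilson 95% interval of a share was narrow, from 0.696% to 0.702% in the first control 2-cell library, and covers counting error only. Part of the gap at the 2-cell stage belongs to the denominator, since MERVL itself took many of the control counts. With MERVL-int left out of the totals, control 2-cell embryos had shares of 0.746% and 0.665%, and MERVL-KD 2-cell embryos 0.931% and 0.822%.

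After TMM scaling, which sets the libraries to a common level over most features, the summed ERVK level no longer separated the 2-cell groups. It was 7466 and 7061 CPM in control and 7846 and 7059 CPM in MERVL-KD 2-cell embryos, which overlapped. In 4-cell embryos it was 12351 and 12004 CPM in control and 14424 and 16436 CPM in MERVL-KD, and in 8-cell embryos 15825 and 13865 CPM against 16745 and 18465 CPM. Both MERVL-KD libraries thus lay above both control libraries at these later stages, as the plot of shares and summed levels shows. Values are given per library of whole embryos, so fewer cells of a type and less RNA per cell cannot be told apart.

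**Figure D1:**
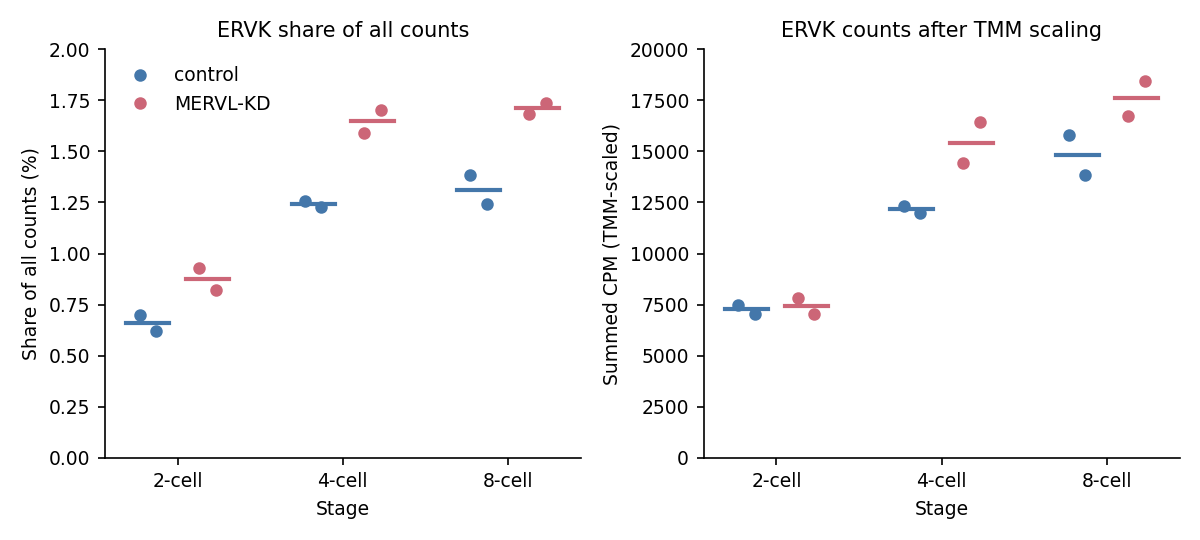
ERVK counts as a percentage of all counts (left) and summed CPM after TMM scaling (right) in each library by stage; points are libraries, bars the mean of the 2 libraries of a group. The shares lie apart at every stage, from 0.621% to 1.74%, whereas the summed CPM of the 2-cell groups overlap.

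In control embryos the summed ERVK level was carried by few types, and by fewer at each later stage. It took 20 types to make up 50% of the summed CPM in 2-cell embryos, 8 in 4-cell and 3 in 8-cell embryos. IAPEz-int, the internal region of the active IAPs, led at the 2-cell stage with 12.3% of the summed level. RLTR45-int, an internal region flanked by RLTR45 LTRs, led afterwards with 21.8% and 32.4%. MERVL-KD embryos needed 21, 4 and 3 types for 50%, with RLTR45-int at 29.0% and 35.4% at the later stages.

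Levels of different types were compared per kilobase (kb) of the average annotated element, as sums over all copies whose number is not known. In control 2-cell embryos the highest mean levels were those of RMER19B (502 CPM per kb), RMER6A (441), IAPEz-int (398), MYSERV6-int (303) and IAPLTR2a2_Mm (284). In control 4-cell embryos the order was RLTR45-int (2239 CPM per kb), RMER6A (685), IAPEz-int (623), RMER19B (421) and RMER17C (342). At the 8-cell stage it was RLTR45-int (4055 CPM per kb), IAPEz-int (840.3), RMER6A (548), MMETn-int (419) and RMER19B (386). The RMER LTRs, which are old and diverged in the mouse genome, were thus among the 5 highest at every stage, while RLTR45-int joined them only from the 4-cell stage.

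Between the 2-cell and the 4-cell stage of control embryos many ERVK types rose, most of them by less than 2-fold. By edgeR with Benjamini-Hochberg adjustment over all features (called with a change of 2-fold or more when the adjusted p was under 0.05), 34 of 272 ERVK types were called higher (background, the share of all tested features called: 20.4%) and 9 lower (background 23.7%). On the adjusted p alone 106 ERVK types were higher (background 26.6%) and 28 lower (background 28.1%). At 2-fold or more the share of ERVK types called was thus 12.5% upward and 3.31% downward, both below the background. The share of ERVK types with an adjusted p under 0.05 was 39.0% upward, above the background, and 10.3% downward, below it. Their median log2 fold change was 0.36, beside -0.02 over all tested features. With library size alone 53 were called higher (background 23.2%) and 7 lower (background 21.5%). That scaling moved the median over all features to 0.13 and that of the ERVK types to 0.52. After TMM scaling other repeat classes also had medians above that of all features, at 0.12 for ERV1, 0.46 for ERVL, 0.27 for ERVL-MaLR and 0.33 for LINE L1 types.

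RLTR45-int rose most among the called types, from 210.1 and 252 CPM in control 2-cell to 2704 and 2599.9 CPM in control 4-cell embryos, a log2 fold change of 3.52 (SE 0.12) (edgeR, Benjamini-Hochberg adjusted p = 2.05e-14). Its LTR, RLTR45, rose with it from 25.1 and 26.0 to 113 and 94.4 CPM. The LTR RLTR13B1 stood at 11.5 and 13.8 CPM and then at 150.0 and 128 CPM, a log2 fold change of 3.46 (SE 0.15) (edgeR, Benjamini-Hochberg adjusted p = 8.14e-14). ERVB4_2-I_MM, an internal region related to betaretroviruses, came next. It went from 26.9 and 23.3 to 237 and 180.1 CPM, a log2 fold change of 3.06 (SE 0.28) (edgeR, Benjamini-Hochberg adjusted p = 1.93e-05). For each of these 4 types the libraries of the stages were far apart.

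Among the elements that still move, the ETn internal region MMETn-int rose from 158 and 165 to 722 and 805 CPM in control embryos, a log2 fold change of 2.24 (SE 0.11) (edgeR, Benjamini-Hochberg adjusted p = 2.16e-13). IAPEz-int rose less, from 951 and 829.9 to 1476 and 1312 CPM (edgeR, Benjamini-Hochberg adjusted p = 0.00625), a log2 fold change of 0.65 (SE 0.17). ETnERV-int moved the other way and fell from 94.0 and 84.1 to 57.4 and 54.3 CPM (edgeR, Benjamini-Hochberg adjusted p = 3.37e-05). Of the 5 ETn and MusD types, 4 were called higher (background 20.4%) and ETnERV-int was lower on the adjusted p alone (background 28.1%). The LTRs of the IAPs were divided: IAPLTR1_Mm rose from 21.5 and 19.0 to 48.9 and 45.2 CPM (edgeR, Benjamini-Hochberg adjusted p = 4.05e-07), IAPLTR2a2_Mm fell from 104 and 97.7 to 41.1 and 38.9 CPM (edgeR, Benjamini-Hochberg adjusted p = 4.87e-07). IAP1-MM_LTR fell from 19.1 and 27.4 to 9.81 and 6.49 CPM (edgeR, Benjamini-Hochberg adjusted p = 1.09e-05). Of the 15 IAP LTR types, 2 were called higher and 4 lower, beside 20.4% and 23.7% of all features.

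The largest called decreases between these stages were found in types of low level. IAPEY5_LTR fell from 6.94 and 4.54 to 2.16 and 0.903 CPM, a log2 fold change of -1.89 (SE 0.40) (edgeR, Benjamini-Hochberg adjusted p = 0.000388). RMER17A-int fell from 12.4 and 11.6 to 3.20 and 3.64 CPM, and ERVB4_3-LTR_MM from 8.98 and 8.36 to 2.10 and 3.05 CPM. Their log2 fold changes were -1.81 (SE 0.25) and -1.75 (SE 0.34). The abundant RMER LTRs moved little: RMER19B fell by 0.26 on the log2 scale, whereas RMER6A gained 0.63, both with an adjusted p under 0.05 in edgeR.

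Summed over groups, the level of the 8 RLTR44 and RLTR45 types rose 9.91-fold from control 2-cell to control 4-cell embryos and that of the 5 ETn and MusD types 2.91-fold. In the first group 2 types, RLTR45-int and RLTR45, were higher on the adjusted p alone and 1 was lower (background 26.6% and 28.1%). The sum of the ERVB types gained 1.89-fold and that of the RLTR13 types 1.99-fold. On the adjusted p alone 5 of the 20 ERVB types were higher and 5 lower, with a median log2 fold change of -0.09, and ERVB4_2-I_MM, given above, had the largest gain in CPM. Of the 23 RLTR13 types 9 were higher and 1 lower. The sum of the 10 internal IAP types gained 1.50-fold, and most of this gain was IAPEz-int, given above. Of these 10 types 5 were higher and 2 lower on the adjusted p alone (background 26.6% and 28.1%). The sum of the 15 IAP LTR types stood at 0.785 of its 2-cell level. These sums were not tested, but in each of these 6 groups the libraries of the stages did not overlap. Internal regions together gained 2.20-fold, from 3212 and 3040.3 to 7018 and 6765 CPM, and LTR types 1.28-fold, from 4254 and 4020.4 to 5332 and 5239.8 CPM. By median over types, however, the 45 internal types stood at -0.05 and the 227 tested LTR types at 0.36 on the log2 scale, so the gain in internal sequence came from few abundant types.

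**Figure D2:**
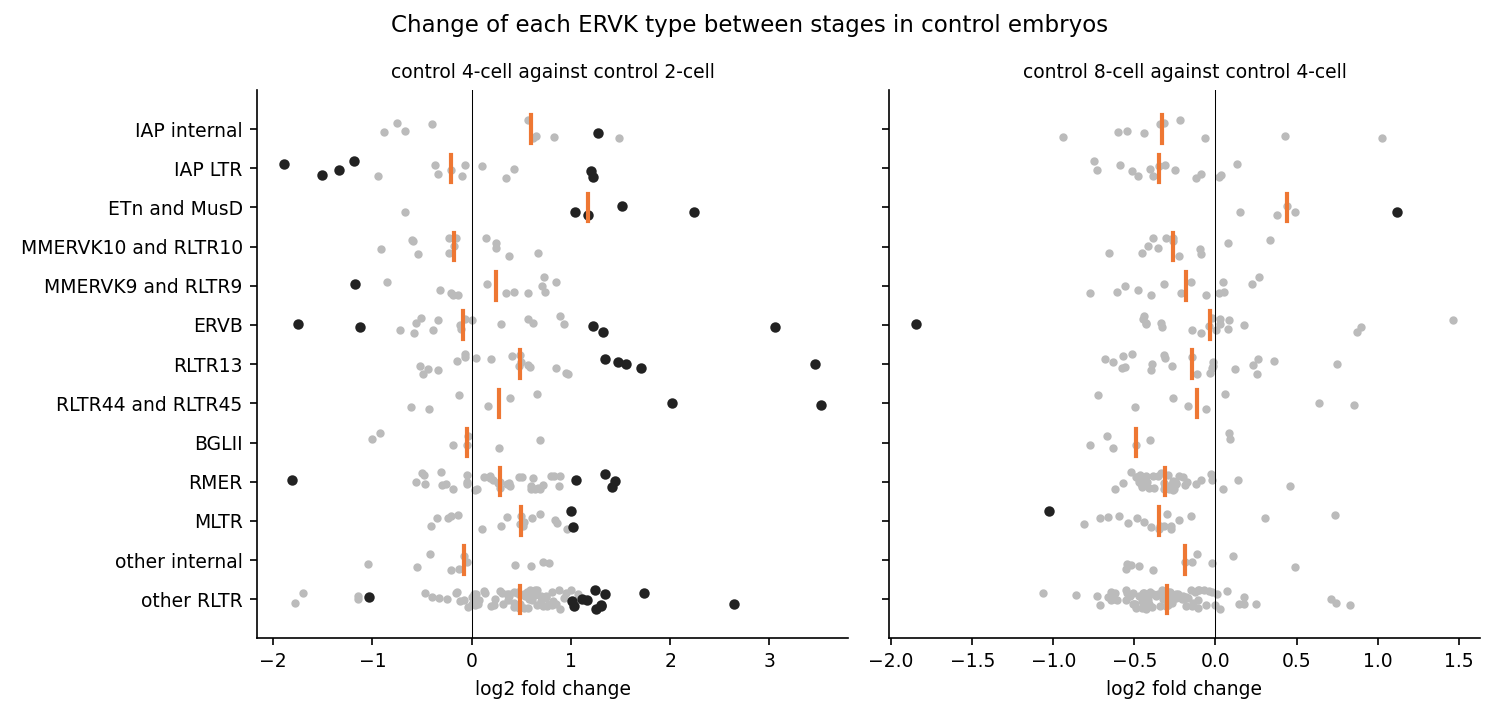
Log2 fold change of each tested ERVK type between stages in control embryos (x axis), by group (y axis); each point is a type, black points passed an adjusted p of 0.05 and 2-fold change in edgeR, and orange bars are group medians. Called types lie mostly above 0 from the 2-cell to the 4-cell stage (34 against 9) and number 3 from the 4-cell to the 8-cell stage.

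Between the 4-cell and the 8-cell stage of control embryos most ERVK types lay lower, while the summed ERVK level rose from 12351 and 12004 CPM to 15825 and 13865 CPM. As a share of all counts it was 1.26% and 1.23%, then 1.38% and 1.24%, where the stages overlapped. The sum of the RLTR44 and RLTR45 types was 1.79 times and that of all internal regions 1.48 times its 4-cell level, and that of LTR types 0.880 times. These sums were not tested. In edgeR 1 ERVK type of 272 was called higher (background 0.467%) and 2 lower (background 1.08%). ETnERV3-int rose from 142 and 187 to 417 and 295 CPM in control embryos (edgeR, Benjamini-Hochberg adjusted p = 0.00161), a log2 fold change of 1.12 (SE 0.17). Its call was lost with library size alone and with only the 4 control libraries of the 2 stages. It was also lost without the first control library of either stage. ERVB4_3-LTR_MM fell further, from 2.10 and 3.05 to 0.616 and 0.803 CPM, and the LTR MLTR25C from 11.8 and 11.9 to 6.78 and 4.82 CPM. Their log2 fold changes were -1.85 (SE 0.39) and -1.03 (SE 0.26), and without the first control 4-cell library 1 type in all was called. With library size alone 5 types were called, all lower, beside 2.27% of all features lower, and with the size factors of DESeq2 2 were called, 1 of them higher, beside 0.563% higher and 0.95% lower.

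On the adjusted p alone 7 ERVK types were higher in control 8-cell than 4-cell embryos (background 3.12%) and 18 lower (background 3.02%). The median was -0.29 over ERVK types and -0.03 over all features, and 218 of the 272 types had a negative log2 fold change. Library size alone moved these medians to -0.50 and -0.23. After TMM scaling the medians of ERV1, ERVL, ERVL-MaLR and LINE L1 types were -0.29, -0.35, -0.35 and -0.43, so the shift was not found in ERVK types alone. RLTR45-int was among the 7 and rose from 2704 and 2599.9 to 5115 and 4491 CPM (edgeR, Benjamini-Hochberg adjusted p = 0.000324). RMER6A fell from 361 and 372 to 304 and 282 CPM (edgeR, Benjamini-Hochberg adjusted p = 0.0435). The 7 types that rose included 3 of the 5 ETn and MusD types and both RLTR45 types.

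**Figure D3:**
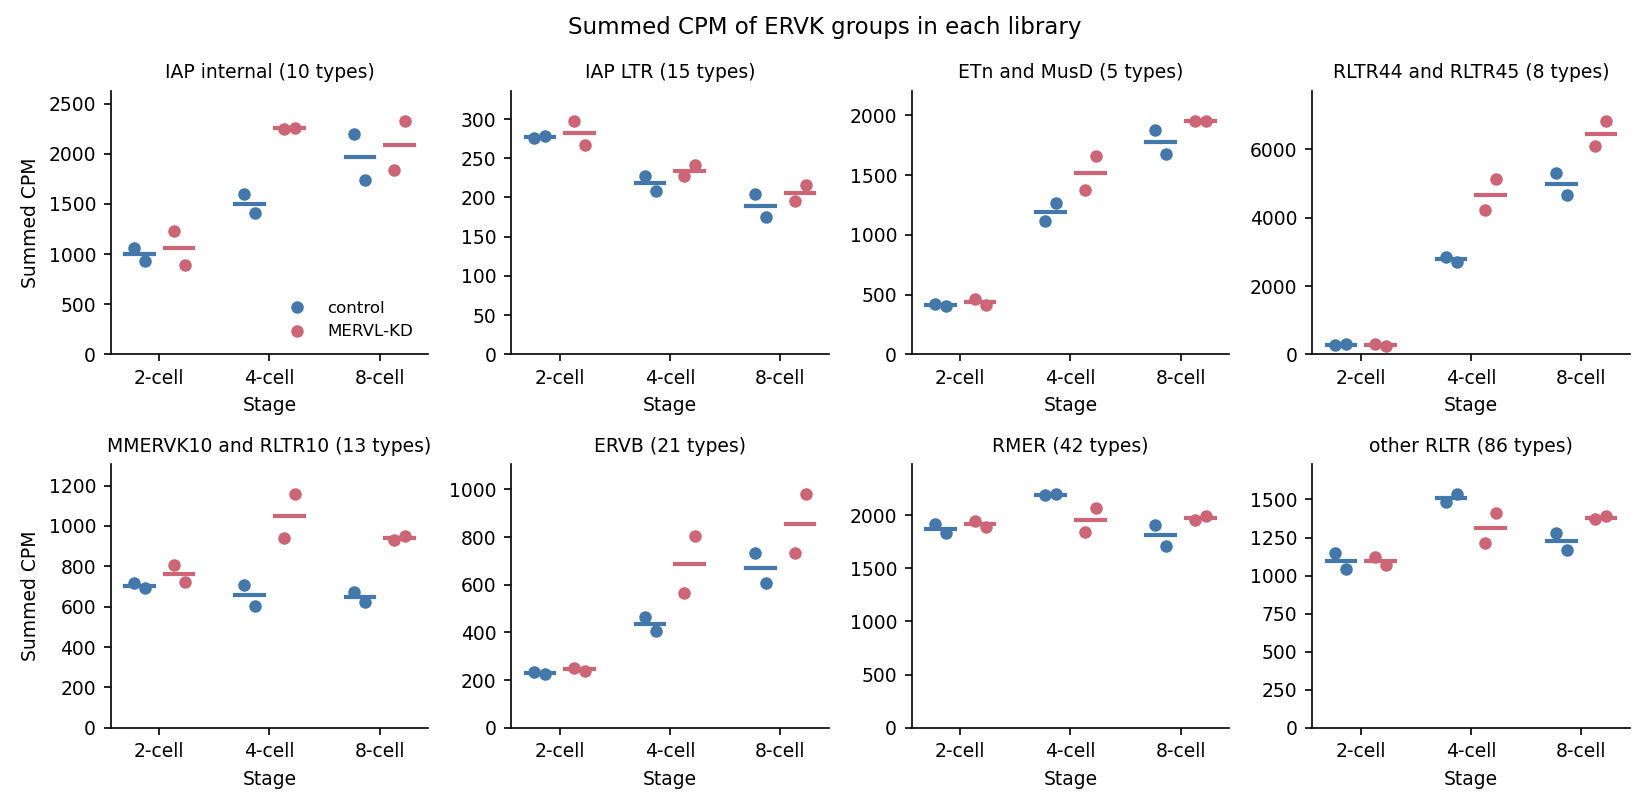
Summed CPM of 8 ERVK groups (y axis, from 0) in each library by stage; points are libraries and bars the mean of the 2 libraries of a group. The sum of the RLTR44 and RLTR45 types, most of it RLTR45-int, rises from 300.7 CPM or less in control 2-cell libraries to 4657 CPM or more in control 8-cell libraries, and its MERVL-KD libraries lie above the control libraries at the 4-cell stage.

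The effect of MERVL depletion on ERVK types was then examined stage by stage. In 2-cell embryos 2 of 270 tested ERVK types were called higher in MERVL-KD (background 4.26%) and 3 lower (background 2.22%) by edgeR. With library size alone 19 were called, 18 of them higher, beside 8.16% of all features higher and 1.41% lower under that scaling. Without the second control library 3 types were called, and without the second MERVL-KD library 9, of which 8 were higher. On the adjusted p alone 19 were higher (background 6.74%) and 6 lower (background 7.23%), and 61 had an unadjusted p under 0.05, beside 26.8% of all features.

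The called types of the 2-cell stage were all of low level. RLTR46A, an LTR, stood at 1.91 and 1.68 CPM in control and 4.75 and 4.92 CPM in MERVL-KD 2-cell embryos, a log2 fold change of 1.51 (SE 0.29) (edgeR, Benjamini-Hochberg adjusted p = 0.00234), and its call was lost with all 12 libraries in 1 fit (adjusted p from 6.54e-05 to 0.085 over its alternatives). RLTR50A stood at 1.40 and 0.495 CPM in control and 2.68 and 2.63 CPM in MERVL-KD 2-cell embryos (edgeR, Benjamini-Hochberg adjusted p = 0.0305). In both, the MERVL-KD libraries lay above the control libraries, and the call of RLTR50A was lost without the second control library and with all 12 libraries in 1 fit (adjusted p between 0.000372 and 0.218 over its alternatives in edgeR and DESeq2). SRV_MM-int, an internal region that resembles simian retroviruses, stood at 12.8 and 12.5 CPM in control and 4.96 and 5.88 CPM in MERVL-KD 2-cell embryos, and lost its call with library size alone. ERVB4_3-I_MM stood at 2.01 and 1.68 CPM in control and 0.665 and 0.283 CPM in MERVL-KD 2-cell embryos (edgeR, Benjamini-Hochberg adjusted p = 0.0247), with an adjusted p from 0.00263 to 0.102 over its alternatives and no call without the first control or the second MERVL-KD library or with all 12 libraries in 1 fit. MMTV-int, the internal region of mouse mammary tumour virus, stood at 1.82 and 1.98 CPM in control and 0.689 and 0.678 CPM in MERVL-KD 2-cell embryos (edgeR, Benjamini-Hochberg adjusted p = 0.0456). Its call was kept in 5 of 13 alternatives and was lost whichever of the 4 libraries was left out, by DESeq2, with library size alone, with the replicate number as a block and with all 12 libraries in 1 fit, with an adjusted p from 0.0385 to 0.2.

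Other types passed on the adjusted p alone, below the 2-fold threshold. ERVB4_2-I_MM stood at 26.9 and 23.3 CPM in control and 43.3 and 39.8 CPM in MERVL-KD 2-cell embryos, a log2 fold change of 0.81 (SE 0.13) (edgeR, Benjamini-Hochberg adjusted p = 0.00062). The LTR RLTR9E stood at 27.1 and 27.2 CPM in control and 41.2 and 38.7 CPM in MERVL-KD 2-cell embryos (edgeR, Benjamini-Hochberg adjusted p = 0.00237), and IAPEy-int, an internal IAP region, at 8.51 and 9.30 CPM in control and 15.4 and 13.3 CPM in MERVL-KD 2-cell embryos (edgeR, Benjamini-Hochberg adjusted p = 0.00871). In all of these both MERVL-KD libraries were above both control libraries. In the other direction the LTR RLTR11C_MM stood at 34.0 and 34.5 CPM in control and 20.7 and 21.2 CPM in MERVL-KD 2-cell embryos (edgeR, Benjamini-Hochberg adjusted p = 0.00418) and MYSERV6-int at 255 and 254 CPM in control and 197 and 197 CPM in MERVL-KD 2-cell embryos (edgeR, Benjamini-Hochberg adjusted p = 0.0318), the latter with a log2 fold change of -0.28 (SE 0.08) that became 0.0044 with library size alone. IAPEz-int itself did not pass the test, at 951 and 829.9 CPM in control and 1089.6 and 769 CPM in MERVL-KD 2-cell embryos, where the groups overlapped. RLTR45-int did not pass either, at 210.1 and 252 CPM in control and 232 and 196 CPM in MERVL-KD 2-cell embryos.

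Most ERVK types nevertheless lay slightly higher in MERVL-KD 2-cell embryos. Their median log2 fold change was 0.16, beside 0.02 over all features, with 191 types above 0 and 79 below. Both MERVL-KD libraries exceeded both control libraries for 87 types (background 23.9%) and lay below both for 51 (background 33.3%). Without the first MERVL-KD library the ERVK median was 0.070, and without the second control library 0.092. By group the medians ran from -0.07, with 3 of 7 types above 0, to 0.51 for internal IAP types, with 10 of 10. The RLTR44 and RLTR45 types had a median of 0.50, with 7 of 8 above 0. The medians of other repeat classes at this stage were 0.20 for ERV1, 0.17 for LINE L1, 0.03 for ERVL-MaLR and -0.11 for ERVL types, so the shift was not found in ERVK types alone. Library size alone raised the median over all features to 0.31 and that over ERVK types to 0.45.

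In 4-cell embryos 2 of 269 tested ERVK types were called higher in MERVL-KD (background 2.58%) and 2 lower (background 1.87%) by edgeR. Library size alone gave 3 calls, all higher, beside 2.85% of all features higher, and without the first MERVL-KD library 7 types were called. On the adjusted p alone 12 were higher (background 4.83%) and 8 lower (background 5.75%). The 12 included RLTR45-int and IAPEz-int, which had the highest summed levels, and the 8 lower types were 4 internal regions and 4 LTR types.

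RLTR45-int stood at 2704 and 2599.9 CPM in control and 4047 and 4913 CPM in MERVL-KD 4-cell embryos, a log2 fold change of 0.76 (SE 0.10) (edgeR, Benjamini-Hochberg adjusted p = 0.00046). IAPEz-int stood at 1476 and 1312 CPM in control and 2138 and 2146 CPM in MERVL-KD 4-cell embryos, a log2 fold change of 0.62 (SE 0.09) (edgeR, Benjamini-Hochberg adjusted p = 0.000856). The IAP LTR IAPLTR1_Mm was higher alongside, at 48.9 and 45.2 CPM in control and 67.3 and 66.6 CPM in MERVL-KD 4-cell embryos (edgeR, Benjamini-Hochberg adjusted p = 0.0159). Both groups of libraries were apart in all 3 types. MMERVK10C-int, the internal region of a family with many recent copies, stood at 334 and 253 CPM in control and 525 and 667 CPM in MERVL-KD 4-cell embryos and was 1 of the called types. MMERVK10D3_I-int of the same family stood at 69.4 and 81.2 CPM in control and 116 and 142 CPM in MERVL-KD 4-cell embryos, a log2 fold change of 0.79 (SE 0.12) (edgeR, Benjamini-Hochberg adjusted p = 0.00194). The call of MMERVK10C-int fell under 2-fold without the second control or the second MERVL-KD library, with an adjusted p of at most 0.0166 over its alternatives in edgeR and DESeq2.

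MMETn-int stood at 722 and 805 CPM in control and 939 and 1180.0 CPM in MERVL-KD 4-cell embryos (edgeR, Benjamini-Hochberg adjusted p = 0.0178), and the ETn LTR RLTRETN_Mm at 71.0 and 74.2 CPM in control and 87.0 and 114 CPM in MERVL-KD 4-cell embryos (edgeR, Benjamini-Hochberg adjusted p = 0.0377). ERVB4_2-I_MM stood at 237 and 180.1 CPM in control and 321 and 501 CPM in MERVL-KD 4-cell embryos (edgeR, Benjamini-Hochberg adjusted p = 0.0438), and RLTR45 at 113 and 94.4 CPM in control and 152 and 189.7 CPM in MERVL-KD 4-cell embryos (edgeR, Benjamini-Hochberg adjusted p = 0.0038). In each of these 4 types the lower MERVL-KD library was above the higher control library, though the MERVL-KD libraries differed from each other by up to 1.56 times in ERVB4_2-I_MM. The remaining called type above 0, ERVB5_1-I_MM, had a low level, at 4.51 and 3.30 CPM in control and 6.83 and 10.5 CPM in MERVL-KD 4-cell embryos (edgeR, Benjamini-Hochberg adjusted p = 0.0298), and lost its call without the second control or the second MERVL-KD library and with the replicate number as a block (adjusted p from 0.00136 to 0.174).

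Lower in MERVL-KD 4-cell embryos were SRV_MM-int, at 9.73 and 7.57 CPM in control and 3.98 and 4.32 CPM in MERVL-KD 4-cell embryos, and the IAP LTR IAP1-MM_LTR, at 9.81 and 6.49 CPM in control and 4.53 and 3.56 CPM in MERVL-KD 4-cell embryos (edgeR, Benjamini-Hochberg adjusted p = 0.0477). Both calls were lost without the first control library, and that of SRV_MM-int also without the first and that of IAP1-MM_LTR also without the second MERVL-KD library. Both were also lost with library size alone, and that of IAP1-MM_LTR with a filter of at least 10 counts and with the replicate number as a block, so it was kept in 8 of 13 alternatives (adjusted p from 0.00557 to 0.33). The adjusted p of SRV_MM-int ran from 0.00341 to 0.147. MLTR25C stood at 11.8 and 11.9 CPM in control and 5.52 and 7.39 CPM in MERVL-KD 4-cell embryos (edgeR, Benjamini-Hochberg adjusted p = 0.0316), and MYSERV-int at 36.9 and 35.4 CPM in control and 23.2 and 26.4 CPM in MERVL-KD 4-cell embryos (edgeR, Benjamini-Hochberg adjusted p = 0.033). In these 4 types, too, the libraries of the groups did not overlap. IAP types thus moved both ways at this stage, with IAPEz-int and its LTR IAPLTR1_Mm higher and IAP1-MM_LTR lower.

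Over all 269 types the 4-cell median was -0.12, beside 0.01 over all features, with 86 types above 0 and 183 below. Both MERVL-KD libraries exceeded both control libraries for 35 types (background 27.3%) and lay below both for 106 (background 27%). The median was smaller than the spread of this median between libraries of a group (0.128), so this shift was not larger than the replicate error. Without the first MERVL-KD library it was -0.062 and without the second -0.20. The medians of ERV1, LINE L1, ERVL and ERVL-MaLR types were -0.09, -0.17, -0.27 and -0.24. The summed level was thus higher in MERVL-KD 4-cell embryos, while the median lay below 0 by no more than the replicate error. Of the 25% of tested types with the highest mean level (at least 27.7 CPM over the 12 libraries), 25 of 68 lay above 0, with a median of -0.11. On the adjusted p alone 11 of the 68 were higher and 2 lower, beside 6.53% and 15.9% of all features at that level. Of the other 201 types 1 was higher and 6 were lower, beside 4.29% and 2.49% of all features below that level.

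Sums differed between groups. The RLTR44 and RLTR45 types summed to 2841 and 2714 CPM in control and 4222 and 5126 CPM in MERVL-KD 4-cell embryos, a ratio of means of 1.68. For MMERVK10 and RLTR10 types the ratio was 1.60, for ERVB types 1.58 and for internal IAP types 1.50. In the same order 5 of 8, 9 of 13, 8 of 20 and 7 of 10 types had a log2 fold change above 0, and of the ERVB types ERVB4_2-I_MM, given above, had the largest gain in CPM. The internal IAP types had mean sums of 1500 CPM in control and 2254 CPM in MERVL-KD 4-cell embryos, and most of this difference was IAPEz-int. Of these 10 types 1 was higher on the adjusted p alone, beside 4.83% of all features. RMER types stood at 2190.3 and 2195 CPM in control and 1845 and 2069 CPM in MERVL-KD 4-cell embryos, a ratio of 0.893, and 35 of the 42 had a log2 fold change below 0. All internal regions together had a ratio of 1.50 and all LTR types one of 0.959, which became 1.57 and 1.00 with library size alone. RLTR45-int alone made up 1828 CPM of the difference of 3252 CPM between the mean summed ERVK levels, and IAPEz-int a further 748 CPM.

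A single library set the largest log2 fold change of the stage. MERVK26-int, chosen after its values were seen, stood at 19.7 and 22.6 CPM in control and 240.0 and 18.2 CPM in MERVL-KD 4-cell embryos, and between 16.1 and 25.2 CPM in the 8 libraries of the other stages. Its log2 fold change of 2.62 (SE 1.72) did not pass the test (edgeR, Benjamini-Hochberg adjusted p = 0.525), and the first MERVL-KD 4-cell library alone stood apart.

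**Figure D4:**
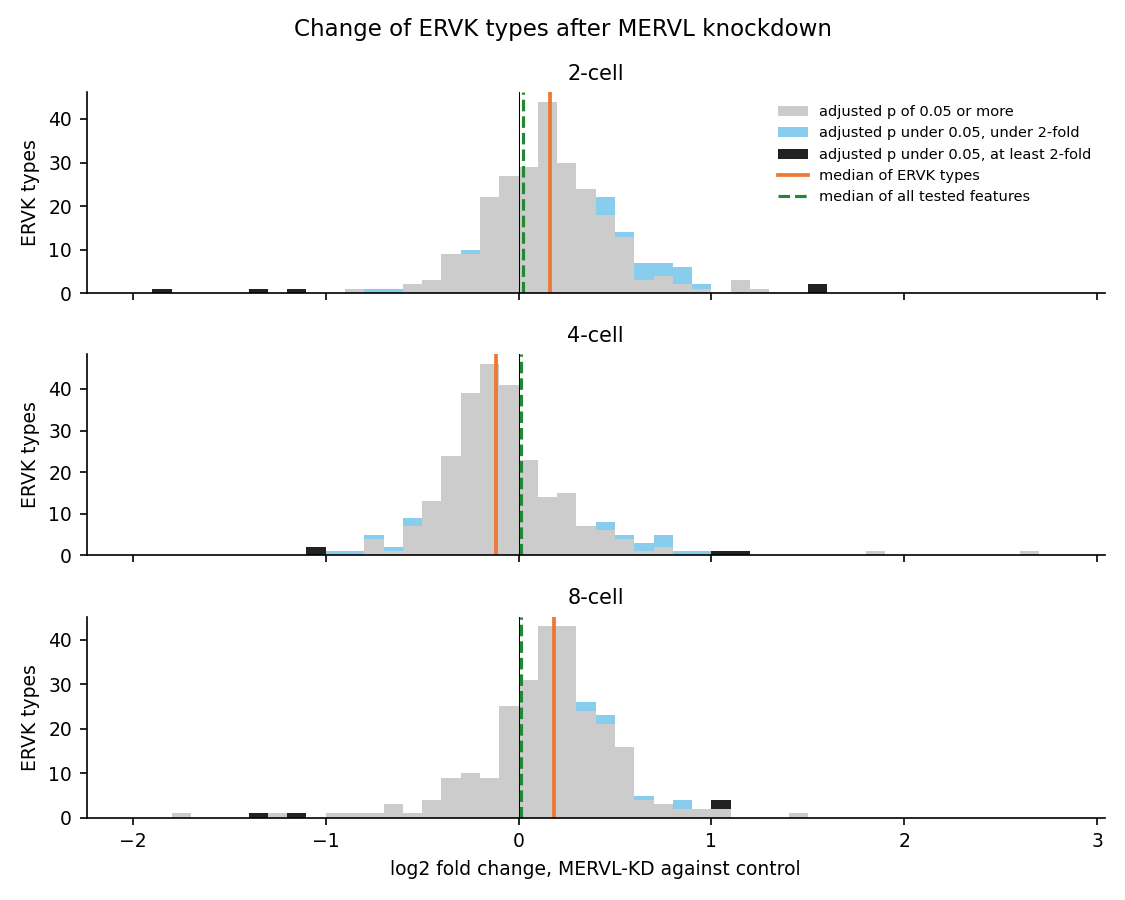
Number of ERVK types (y axis) by log2 fold change of MERVL-KD against control embryos (x axis) at each stage, coloured by the edgeR test, with the median over ERVK types (orange) and over all tested features (green). The ERVK median lies at 0.16, -0.12 and 0.18 in order of stage, and few types pass the test.

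In 8-cell embryos 2 of 269 ERVK types were called higher (background 0.632%) and 2 lower (background 1.07%) by edgeR, close to the background. Without the second control library 2 types were called. On the adjusted p alone 9 were higher (background 1.62%) and 2 lower (background 3.51%). The called LTR types RLTR31A_Mm, at 3.23 and 2.78 CPM in control and 5.94 and 6.66 CPM in MERVL-KD 8-cell embryos (edgeR, Benjamini-Hochberg adjusted p = 0.0407), and RLTR20A, at 3.26 and 4.02 CPM in control and 7.96 and 6.61 CPM in MERVL-KD 8-cell embryos (edgeR, Benjamini-Hochberg adjusted p = 0.0454), were low. Both calls were lost without either control library, that of RLTR31A_Mm also without the second and that of RLTR20A without the first MERVL-KD library, and both with all 12 libraries in 1 fit. Over the alternatives their adjusted p in edgeR and DESeq2 ran from 0.0101 to 0.137 and from 0.00918 to 0.184.

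IAP1-MM_LTR remained lower, at 8.74 and 8.03 CPM in control and 3.40 and 3.15 CPM in MERVL-KD 8-cell embryos, a log2 fold change of -1.35 (SE 0.24) (edgeR, Benjamini-Hochberg adjusted p = 0.0089). This call was kept in all 13 alternatives (adjusted p from 0.000164 to 0.0253). SRV_MM-int stood at 15.0 and 9.34 CPM in control and 5.19 and 5.36 CPM in MERVL-KD 8-cell embryos, and lost its call without the first control library. In both types the MERVL-KD libraries agreed closely and lay below both control libraries. IAPA_MM-int had a larger negative log2 fold change of -1.80 (SE 0.51), at 1.56 and 2.38 CPM in control and 0.663 and 0.461 CPM in MERVL-KD 8-cell embryos, and did not pass (edgeR, Benjamini-Hochberg adjusted p = 0.0696).

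Some internal regions that were higher in MERVL-KD 4-cell embryos were also higher here, while IAPEz-int did not pass the test. MMERVK10D3_I-int stood at 88.2 and 102 CPM in control and 166 and 166 CPM in MERVL-KD 8-cell embryos, a log2 fold change of 0.82 (SE 0.10) (edgeR, Benjamini-Hochberg adjusted p = 0.000532). MMERVK10C-int stood at 326 and 293 CPM in control and 469.6 and 494 CPM in MERVL-KD 8-cell embryos, a log2 fold change of 0.65 (SE 0.08) (edgeR, Benjamini-Hochberg adjusted p = 0.00102). RLTR10C, an LTR of the same group, stood at 54.5 and 50.7 CPM in control and 72.6 and 70.5 CPM in MERVL-KD 8-cell embryos (edgeR, Benjamini-Hochberg adjusted p = 0.0359). Of the 13 MMERVK10 and RLTR10 types 4 passed on the adjusted p alone, all higher, beside 1.62% of all features. RLTR45-int stood at 5115 and 4491 CPM in control and 5881 and 6577 CPM in MERVL-KD 8-cell embryos (edgeR, Benjamini-Hochberg adjusted p = 0.0201). MMETn-int stood at 1090.0 and 1059 CPM in control and 1339.7 and 1311 CPM in MERVL-KD 8-cell embryos (edgeR, Benjamini-Hochberg adjusted p = 0.0273). Of the 5 ETn and MusD types, however, 3 had a log2 fold change below 0, and the median of the group was -0.13. IAPEz-int did not pass at this stage, at 2101 and 1659 CPM in control and 1756 and 2228 CPM in MERVL-KD 8-cell embryos, where the groups overlapped. The edgeR contrast of the effects at the 8-cell and the 4-cell stage, given below, did not call IAPEz-int, so a change of its effect between these stages was not shown.

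The 8-cell median was 0.18, beside 0.01 over all features, with 201 types above 0 and 68 below. Both MERVL-KD libraries exceeded both control libraries for 124 types (background 24.4%) and lay below both for 20 (background 25.3%). The spread of this median between libraries of a group was 0.107. ERV1 and LINE L1 types had medians of 0.18 and 0.12, and ERVL and ERVL-MaLR types 0.05 and 0.11. Library size alone moved the ERVK median to 0.31 and that over all features to 0.14.

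**Figure D5:**
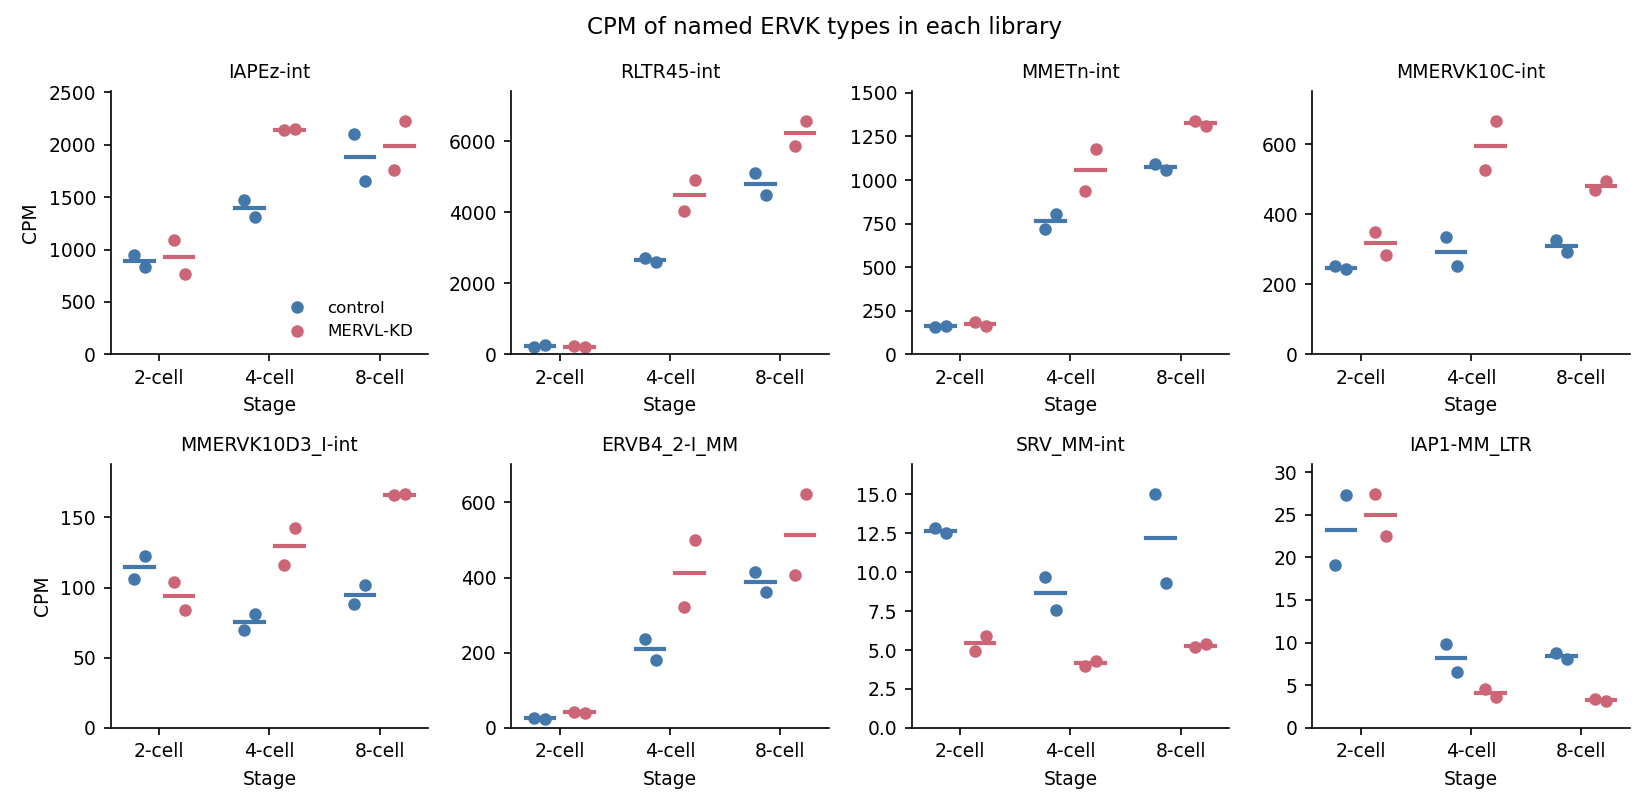
CPM of 8 ERVK types (y axis, from 0) in each library by stage; points are libraries and bars the mean of the 2 libraries of a group. MMERVK10C-int lies higher and SRV_MM-int lower in both MERVL-KD libraries of every stage, and RLTR45-int and MMETn-int lie higher in both from the 4-cell stage.

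Across the stages, 268 ERVK types were tested at all 3. Of these 46 had a log2 fold change above 0 and 13 one below 0 at every stage, beside 19.8% and 19.6% of all features. By the adjusted p alone MMERVK10C-int was higher at every stage and SRV_MM-int was lower at every stage, beside 0.265% and 1.24% of all features. At the 2-cell stage MMERVK10C-int stood at 251 and 244 CPM in control and 349 and 284 CPM in MERVL-KD 2-cell embryos (edgeR, Benjamini-Hochberg adjusted p = 0.00759). Higher at 2 stages or more were 6 types, ERVB4_2-I_MM, MMERVK10C-int, MMERVK10D3_I-int, RLTR45, MMETn-int and RLTR45-int, beside 1.89% of all features. Lower at 2 stages or more were IAP1-MM_LTR and SRV_MM-int, beside 4.10% of all features.

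The control 4-cell libraries serve both in the comparison with control 2-cell embryos and in that with MERVL-KD 4-cell embryos, so these comparisons are not independent. The values of each are given side by side. RLTR45-int, RLTR45, MMETn-int, ERVB4_2-I_MM, IAPEz-int and IAPLTR1_Mm rose from control 2-cell to control 4-cell embryos, as given above. MMERVK10D3_I-int fell from 106 and 123 CPM in control 2-cell to 69.4 and 81.2 CPM in control 4-cell embryos, a log2 fold change of -0.61 (SE 0.13) (edgeR, Benjamini-Hochberg adjusted p = 0.000403). MMERVK10C-int did not pass between these stages (log2 fold change 0.24).

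Whether the effect of MERVL depletion differed between stages was tested with interaction contrasts in 1 fit of the 12 libraries. By edgeR on the adjusted p alone, 5 of 272 ERVK types differed between the 4-cell and the 2-cell stage (background 4.12%) and 4 between the 8-cell and the 2-cell stage (background 3.98%). Between the 8-cell and the 4-cell stage 0 differed (background 0.636%), with 61 at an unadjusted p under 0.05 (11.8% of all features) and 4 by DESeq2, and 1 differed without either MERVL-KD 4-cell library, the first control 8-cell library or the second MERVL-KD 8-cell library. With library size alone 33 types differed between the 4-cell and the 2-cell stage, 3 of them with the larger log2 fold change at the 4-cell stage, against 3 of 5, beside 0.93% of all features with the larger and 5.56% with the smaller value. For the 8-cell against the 2-cell stage that split was 1 of 4 with library size alone, against 3 of 4, beside 1.12% of all features with the larger and 3.86% with the smaller value. Without the second MERVL-KD 2-cell library 3 types differed between the 4-cell and the 2-cell stage, and without either MERVL-KD 4-cell library 8.

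Factors that silence endogenous retroviruses were followed as a list of 41 genes, of which 40 were in the files and 39 were tested. By edgeR on the adjusted p alone, 8 were lower in MERVL-KD 2-cell, 5 in 4-cell and 3 in 8-cell embryos, beside 7.23%, 5.75% and 3.51% of all features. DESeq2 gave 8, 5 and 7. Most of the list had a mean of at least 27.7 CPM over the 12 libraries. Of all features at that level 17.5%, 15.9% and 9.4% were lower in edgeR, so decreases in the list were not clearly more frequent than at that level. At the 4-cell stage Cbx1 and Atf7ip were higher, 2 of 39 beside 4.83% of all features and named after their values were seen, against 0 in 2-cell and 0 in 8-cell embryos, where 0 and 3 had an unadjusted p under 0.05 and DESeq2 called 0. Cbx1 was instead 1 of the 8 lower in MERVL-KD 2-cell embryos, with a log2 fold change of -0.75 (edgeR, Benjamini-Hochberg adjusted p = 0.000768). The medians of the list were -0.10, -0.09 and -0.10 in order of stage. Smarcad1, a chromatin remodeller that keeps IAPs silent, was the only member called at 2-fold, lower at the 4-cell stage beside 1.87% of all features, at 179 and 195 CPM in control and 79.0 and 71.3 CPM in MERVL-KD 4-cell embryos (edgeR, Benjamini-Hochberg adjusted p = 1.13e-05). This call was also made by DESeq2. On the adjusted p alone Smarcad1 was also lower in MERVL-KD 2-cell embryos (log2 fold change -0.81, edgeR, Benjamini-Hochberg adjusted p = 6.35e-05). The same held in MERVL-KD 8-cell embryos (log2 fold change -0.62, edgeR, Benjamini-Hochberg adjusted p = 0.00191). The summed level of the list was 7143 and 7112 CPM in control and 6176 and 6295 CPM in MERVL-KD 4-cell embryos, and the MERVL-KD libraries also lay below the control libraries at the other stages.

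Trim28, the corepressor bound by the zinc finger proteins, stood at 641 and 630.3 CPM in control and 426 and 423 CPM in MERVL-KD 8-cell embryos, a log2 fold change of -0.57 (edgeR, Benjamini-Hochberg adjusted p = 0.00098). It was also lower at the 4-cell stage, at 478 and 460.2 CPM in control and 391 and 354 CPM in MERVL-KD 4-cell embryos (edgeR, Benjamini-Hochberg adjusted p = 0.0392). Setdb1, which methylates histone H3 at these elements, stood at 87.2 and 93.7 CPM in control and 69.4 and 63.2 CPM in MERVL-KD 2-cell embryos (edgeR, Benjamini-Hochberg adjusted p = 0.0245). Both groups were apart in these cases. Dnmt1, the maintenance DNA methyltransferase, passed at no stage (log2 fold change -0.16, -0.12 and -0.09). Whether these levels bear on those of the ERVK types was not tested.

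Markers of developmental stage and of other cells were read in the same libraries. The 9 markers of the 2-cell stage summed to 664 and 554 CPM in control and 323 and 398 CPM in MERVL-KD 2-cell embryos. Of these 2, Zscan4c and Usp17le, were called lower, beside 2.22% of all features. By edgeR on the adjusted p alone 5 of the 9 were lower, beside 7.23% of all features, and the median of the list was -0.74. In 4-cell embryos 1 of the 9, Zfp352, was called lower, beside 1.87% of all features, but the median of the list was 0.26. Its sum was 103 and 113 CPM in control and 101 and 95.9 CPM in MERVL-KD 4-cell embryos. Most of this sum was Tdpoz4, at 83.9 and 87.9 CPM in control and 72.8 and 83.3 CPM in MERVL-KD 4-cell embryos. Tdpoz4 did not fall from control 2-cell to control 4-cell embryos (log2 fold change 0.02), so the sum says little about the other markers. The 8 oocyte transcripts, led by Bmp15, summed to 1013 and 900.3 CPM in control and 572 and 651 CPM in MERVL-KD 2-cell embryos, and by edgeR 2 were lower on the adjusted p alone, beside 7.23% of all features. Of 8 markers of later stages, led by Tfap2c, 7 were tested at the 4-cell stage and 2 of them, Krt8 and Krt18, were called higher, beside 2.58% of all features, while the list summed to 194 and 207 CPM in control and 205 and 197 CPM in MERVL-KD 4-cell embryos. In 8-cell embryos this list summed to 243 and 242 CPM in control and 199.96 and 197 CPM in MERVL-KD 8-cell embryos, and 1 of 7 tested, Nanog, named after its values were seen, was lower (edgeR, Benjamini-Hochberg adjusted p = 0.0312; log2 fold change -0.65), beside 3.51% of all features. The part of stage markers in the ERVK results was not tested.

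Transcripts of other cells were near 0. The 8 cumulus cell markers summed to at most 7.65 CPM in any library, led by Star, which alone of the 4 tested was called higher at the 2-cell stage, beside 4.26% of all features, at 1.88 and 2.15 CPM in control and 4.35 and 4.01 CPM in MERVL-KD 2-cell embryos. The 5 sperm transcripts, led by Prm2, summed to at most 1.54 CPM. The 6 markers of blood and fibroblasts, led by Hba-a1, summed to at most 9.37 CPM, and Hba-a1, 1 of 2 tested, was called higher at the 4-cell stage, beside 2.58% of all features, at 0.312 and 1.42 CPM in control and 3.59 and 7.44 CPM in MERVL-KD 4-cell embryos. Each of these markers had a count in at least 1 library.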

How the data were processed

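The authors aligned paired-end total RNA reads to GRCm38 with STAR 2.5.3a, kept unique alignments and counted them over genes and RepeatMasker repeats with featureCounts. The deposited values are raw counts per gene or repeat type in each of 12 libraries, with the copies of a repeat type summed. Replicate libraries were not pooled. The 12 ATAC-seq samples were not used here.

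Counts were tested with edgeR 4.0.16 (quasi-likelihood, TMM scaling, filterByExpr) in R 4.3.3, with Benjamini-Hochberg adjustment over all tested features. edgeR was run with limma 3.58.1, and DESeq2 1.42.0 was the second tool. SciPy 1.17.1 gave the exact permutation tests, and tables and figures were made with Python 3.11.15, pandas 2.3.3 and matplotlib 3.10.9. Fold changes after MERVL depletion came from 1 fit of 4 libraries per stage, and stage and interaction contrasts from 1 fit of 12. The SE given with a log2 fold change in edgeR is its absolute value divided by the square root of the F statistic of its test. CPM values use the TMM factors of the 12 libraries, so their ratios can differ slightly from the fold changes. The tests were tried on simulated data, where DESeq2 missed the first limit set for the number of changed features recovered, and that limit was replaced after the outcome was seen.

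Members and lists were chosen with earlier results of these data known. Types were followed as named types if they were called after MERVL depletion or had 1 of the 3 smallest adjusted p in either direction at a stage. So were types with 1 of the 5 highest control levels per kb at a stage. Types with 1 of the 3 largest called changes in either direction between control stages were added. The rest differed in an interaction contrast or belonged to a fixed list of 22 well-known types. From that list BGLII, ETnERV2-int, IAPLTR1a_Mm, IAPLTR2_Mm, MurERV4-int, RLTR13D5, RLTR13G and RLTR9D were followed, but their values are not given in the text. Named genes were the target, Trim28, Setdb1, Dnmt1 and called members of the list of silencing factors. Cbx1, Atf7ip and Nanog, which passed on the adjusted p alone, were named after their values were seen. From the fixed lists of stage and cell markers, called members and the most abundant member were likewise named after their values were seen.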

Additional observations from a re-analysis of the deposited data

Results flagged for a closer look

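The effect of MERVL depletion differed between stages for 8 ERVK types, with 9 calls over 2 interaction contrasts (edgeR, Benjamini-Hochberg adjusted p under 0.05), given as the log2 fold change at the later stage minus that in 2-cell embryos. These were 5 of 272 types (1.84%) for the 4-cell stage and 4 of 272 (1.47%) for the 8-cell stage, beside 4.12% and 3.98% of all features. Such differences were thus less frequent in ERVK types than over all features. In 4-cell embryos the log2 fold change was higher for MMERVK10D3_I-int by 1.07 (adjusted p = 0.0015), for ERVB4_2-LTR_MM by 1.01 (adjusted p = 0.0237) and for RLTR45-int by 0.87 (adjusted p = 0.00357). It was lower for RLTR50B, with a difference of -1.56 (adjusted p = 0.0115), and for RLTR22_Mus, with -0.93 (adjusted p = 0.0458).

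At the 8-cell stage the log2 fold change was higher than at the 2-cell stage for MMERVK10D3_I-int by 1.09 (edgeR, Benjamini-Hochberg adjusted p = 0.00115). It was also higher for RLTR11C_MM by 0.77 (adjusted p = 0.0436) and for MYSERV6-int by 0.60 (adjusted p = 0.0087). These last types were lower in MERVL-KD 2-cell embryos, as given above, and MYSERV6-int went from -0.28 to 0.25 in the fits per stage. For IAP1-MM_LTR the log2 fold change was lower, with a difference of -1.46 (edgeR, Benjamini-Hochberg adjusted p = 0.0141). In the fits per stage it was 0.19 in 2-cell embryos and negative in 8-cell embryos, as given above. MMERVK10D3_I-int in both contrasts, RLTR45-int and RLTR50B passed in all 16 alternatives. IAP1-MM_LTR passed in 14, MYSERV6-int in 12, ERVB4_2-LTR_MM in 10, RLTR22_Mus in 8 and RLTR11C_MM in 6. The causes of these differences were not tested.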

How the results depend on the processing

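Each result was recomputed with other tools, scalings, filters and libraries. Where a library was left out, the lone library of its group was assumed to vary like the other groups. With library size alone, the ERVK types called after MERVL depletion numbered 19 at the 2-cell stage instead of 5, and 5 instead of 3 between the control 4-cell and 8-cell stages. Between the control 2-cell and 4-cell stages 53 instead of 34 were called higher and 7 instead of 9 lower. The ERVK median became 0.45 in 2-cell and 0.31 in 8-cell embryos, and 33 types differed between the effects at the 4-cell and the 2-cell stage. With all 12 libraries in 1 fit, 1 type was called in 2-cell and 2 in 8-cell embryos, and the 2-cell median was 0.080. The cause was not tested.

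With no fold threshold, which by construction calls more, the counts were 25, 20 and 11 after depletion, 134 between the control 2-cell and 4-cell stages and 25 between the 4-cell and 8-cell stages. In the interaction contrasts DESeq2 gave 11 types for the 4-cell against the 2-cell stage, 4 for the 8-cell against the 4-cell and 10 for the 8-cell against the 2-cell stage. A filter of at least 1 count gave 8, 3 and 7, a filter of at least 10 counts 9 for the first and 7 for the last, and halved counts 10 for the first. As a share of the counts of repeat types, the difference between MERVL-KD and control was 2.70, 1.87 and 1.83 percentage points in order of stage. The cause was not tested.

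Leaving out 1 library gave 3 to 9 calls in 2-cell, 3 to 7 in 4-cell and 2 to 5 in 8-cell embryos, and 1 to 3 between the control 4-cell and 8-cell stages. In the interaction contrasts it gave 3 to 8 types for the 4-cell against the 2-cell stage and 0 to 1 for the 8-cell against the 4-cell stage. The 2-cell median ran from 0.070 to 0.22.

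The replicate numbers do not pair libraries across groups by the labels, and log2 differences of libraries with the same number had correlations across features of -0.057, 0.010 and 0.029 by stage. Entering the number as a block gave 4, 2 and 4 calls after depletion and 42 and 3 between control stages. The interaction contrasts gave 4, 0 and 5 types.

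Of the values of single types printed here, a set listed after the sign changes over all named types were seen, 7 of 937 changed sign. Over all named types 91 of 2711 did, 0 of them of a value called at 2-fold or more before or after. When 1 library was left out, IAPEz-int ran from -0.14 to 0.37 in 2-cell embryos and from -0.091 to 0.28 in 8-cell embryos, and RLTR45-int from -0.17 to 0.087 in 2-cell embryos. With library size alone the 2-cell value was 0.26 for RLTR45-int and 0.0044 for MYSERV6-int, which had passed on the adjusted p alone. The cause was not tested.

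With 2 libraries a group, small changes in types of low count cannot be told from replicate spread. Copies of a type cannot be told apart, and reads that align to several copies are missing from the counts.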
